A study of Saccharomyces cerevisiae with 18 samples.

Results

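Stable unannotated transcripts (SUTs) are non-coding RNAs of budding yeast that were not part of the gene annotation and can be detected in wild-type cells. The members described here are every feature whose identifier begins with SUT in both count tables of the study, 847 of 12289 features. The 18 RNA samples of the budding yeast Saccharomyces cerevisiae form 6 groups of 3, all grown in YPD at 30 °C to an optical density of 0.6. The first series held a upf1 deletion and its wild type, both in the BY4741 background (mat a). The second series held an nmd4 deletion and an ebs1 deletion in BY4741 (mat a), a strain labelled nmd4 ebs1 double deletion in BY4742 (mat alpha), and a BY4741 (mat a) wild type. BY4741 and BY4742 are laboratory strains derived from S288C that differ in mating type and in some auxotrophic markers. For the labelled double deletion, genotype and strain background therefore cannot be told apart.

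Yeast SUTs are made by RNA polymerase II, capped and polyadenylated, and many start in the nucleosome-free regions of gene promoters or at the ends of genes, so that they often run opposite a coding gene. Cryptic unstable transcripts (CUTs) are removed in the nucleus by the exosome, and Xrn1-sensitive unstable transcripts (XUTs) in the cytoplasm by the 5′ to 3′ exonuclease Xrn1. Nonsense-mediated decay (NMD) degrades RNAs on which translation stops early, with a long stretch of RNA left behind the stop codon. UPF1, called NAM7 in the annotation, encodes the RNA helicase at the core of NMD, and Nmd4 and Ebs1 are proteins found associated with Upf1 in yeast. A non-coding RNA that reaches the ribosome carries short chance reading frames, and such RNAs are known NMD substrates in yeast.

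The annotated start of 6 SUTs is shown to let a reader see these frames: 4 of the SUTs named below for their large changes in the upf1 deletion, 1 that was lower there, and 1 with a high level and no call in the main fit. Each line runs 5′ to 3′ from the annotated start. The first ATG and the frame it opens, up to and including its stop codon, are in capitals. The sequences were read by coordinates from the RefSeq R64 genome. They come from chrXVI:798942-799043 (minus strand) for SUT840, chrIV:433973-434072 (minus) for SUT464, chrVII:714872-714971 (minus) for SUT557, chrV:9554-9765 (minus) for SUT500, chrXVI:813231-813343 (plus) for SUT424 and chrXV:1003958-1004057 (plus) for SUT388.
SUT840: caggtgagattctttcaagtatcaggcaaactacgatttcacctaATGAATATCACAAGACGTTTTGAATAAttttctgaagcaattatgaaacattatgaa
SUT464: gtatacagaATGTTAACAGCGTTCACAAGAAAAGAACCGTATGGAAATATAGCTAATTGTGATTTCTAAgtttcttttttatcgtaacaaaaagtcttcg
SUT557: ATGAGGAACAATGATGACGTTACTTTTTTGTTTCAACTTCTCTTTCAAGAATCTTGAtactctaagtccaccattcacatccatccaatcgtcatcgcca
SUT500: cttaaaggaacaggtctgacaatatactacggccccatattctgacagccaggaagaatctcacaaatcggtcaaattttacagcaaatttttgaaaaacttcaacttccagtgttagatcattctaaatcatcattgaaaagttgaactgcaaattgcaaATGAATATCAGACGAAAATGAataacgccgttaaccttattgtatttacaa
SUT424: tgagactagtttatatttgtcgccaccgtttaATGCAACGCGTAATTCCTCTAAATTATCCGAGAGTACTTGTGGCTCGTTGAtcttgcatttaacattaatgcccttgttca
SUT388: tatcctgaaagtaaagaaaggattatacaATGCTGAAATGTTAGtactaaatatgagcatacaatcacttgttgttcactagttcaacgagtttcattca
In SUT840 the first frame had 8 codons before its stop and 1177 bases of the SUT lay beyond it. The values were 19 codons and 692 bases in SUT464, 18 codons and 1440 bases in SUT557, and 6 codons and 1171 bases in SUT500. In SUT424 they were 16 codons and 414 bases, and in SUT388 they were 4 codons and 469 bases. A short first frame thus stood in SUTs of all 3 kinds. Over all members, 836 SUTs held an ATG, 714 of them within the first 100 bases, and in 824 the first frame closed with a stop. That first frame had a median of 11 codons (quartiles 5 and 22), and the median length beyond its stop was 664 bases. In 814 SUTs the annotated length was 1 base above a multiple of 8, so the annotated ends follow a grid of 8 bases and the first frame is a reading of the annotation, not of a mapped transcript start.

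SUTs were between 33 bases (SUT718) and 4913 bases (SUT048) long, with a median of 745 bases and quartiles of 397.5 and 1281 bases. They lay on all 16 nuclear chromosomes, 431 on the plus and 416 on the minus strand. Their density ran from 39.1 SUTs per Mb on chromosome I to 99.5 per Mb on chromosome VIII. ORF-id features are those with an open reading frame identifier, and 6006 of the 6682 were matched to RefSeq R64 genes. Positions and counts of genes below refer to these features. Of the 847 SUTs, 594 (70.1%) overlapped an ORF-id feature on the opposite strand by at least 1 base. In all, 461 had at least 50% of their length there, and 172 lay wholly opposite. A start within 500 bases of a divergent gene's start was found for 435 SUTs, at a median gap of 196 bases. In all, 199 SUTs touched no ORF-id feature on either strand. On the same strand 108 SUTs met an ORF-id feature, 101 of them by a single shared base. On the same strand 532 SUTs also overlapped a XUT, 484 of them over at least 50% of the SUT. The authors counted a read for every feature it overlapped, so such a SUT and XUT share reads, and 180 SUTs were free of any same-strand overlap.

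The deleted genes were read first. In the upf1 deletion NAM7 had 8.78 ± 0.370 CPM (scaled counts per 1e6 counts; SD, n = 3), against 251 ± 5.18 CPM in its wild type. In the strain labelled a double deletion NMD4 stood at 73.6 CPM, against 27.2 CPM in wild type, so NMD4 goes against that label, while EBS1 was at 4.83 CPM there, against 142 CPM. Library totals ran between 14243384 and 31452109 counts. Same-numbered libraries were handled in parallel per the labels, and no label names separate cultures or colonies for the samples of a group. The p-values thus cover the spread among these 18 samples, which may be technical.

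SUTs took a larger share of all counts in the upf1 deletion than in any other group. They held 0.871%, 0.855% and 0.889% of counts in the 3 upf1 deletion libraries, against 0.270%, 0.258% and 0.261% in the wild-type libraries of that series. The upf1 libraries stood above all others with no overlap, at 3.31 times the wild-type share (SD of the ratio 0.103, n = 3 each). For the nmd4 deletion the share was 0.359% ± 0.0122, for the ebs1 deletion 0.419% ± 0.0225, for the labelled double deletion 0.434% ± 0.0165, and 0.330% ± 0.0133 in their wild type (SD, n = 3 each). The ratios to wild type were 1.09, 1.27 and 1.31. Wilson 95% intervals of the single shares were at most 0.00781 percentage points wide, which covers counting error only. In the SUTs free of same-strand overlap the upf1 ratio was 2.70. Fewer cells making an RNA and less RNA per cell cannot be told apart in these bulk samples.

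**Figure D1:**
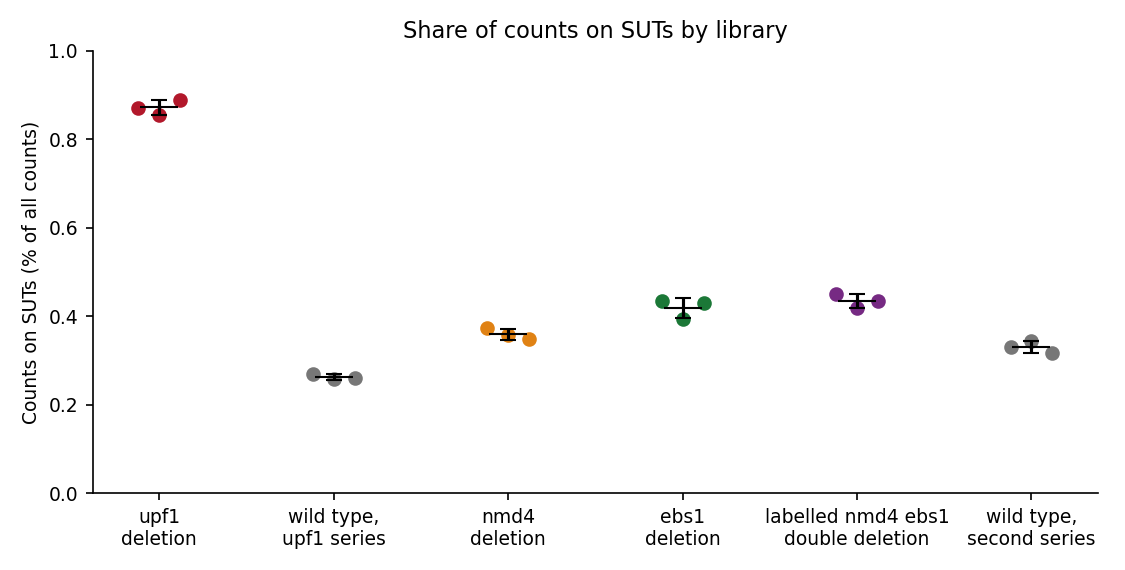
Percent of all counts of a library that fell on the 847 SUTs (y axis), by group (x axis). Points are the 3 libraries of a group, the dash is their mean and the bar 1 SD; the upf1 deletion libraries sit between 0.855% and 0.889% and its wild type between 0.258% and 0.270%.

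Without Upf1 most SUTs that could be tested were more abundant. Of 744 SUTs that passed the filter on low counts, 545 (73.3%) rose and 28 fell in the upf1 deletion at an adjusted p under 0.05 (edgeR's quasi-likelihood test, Benjamini-Hochberg adjustment over all 9700 features tested). Over all features, 37.0% were called higher and 31.8% lower. The median log2 change over the tested SUTs was 1.08 (quartiles 0.46 and 1.72), against 0.02 over all features, and 395 SUTs were at least 2-fold higher. ORF-id features had 26.1% called higher, 44.1% lower, and a median of -0.13. Scaling on ORF-id features alone moved log2 changes up by a median of 0.13 and turned the split of ORF-id features to 33.0% higher and 29.5% lower, while the median over SUTs was then 1.21.

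XUTs, many of which share reads with a SUT, had a median of 1.07 with 1082 of 1491 called higher and 45 lower. CUTs of the first annotation had a median of 0.07 with 152 of 501 called higher and 69 lower, and those of the second annotation a median of -0.14 with 155 of 690 higher and 208 lower. The difference between SUTs and these classes was not tested. The 103 SUTs left out by the filter had a median length of 265 bases, against 837 bases for those tested. Among the tested SUTs, 671 reached the count minimum in every wild-type library, and 506 of those were called higher. Another 64 reached it in every upf1 deletion library but not in every wild-type library, so a rise was built into their selection. With no filter, 551 of 838 SUTs were called higher and 28 lower, with a median of 0.99.

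**Figure D2:**
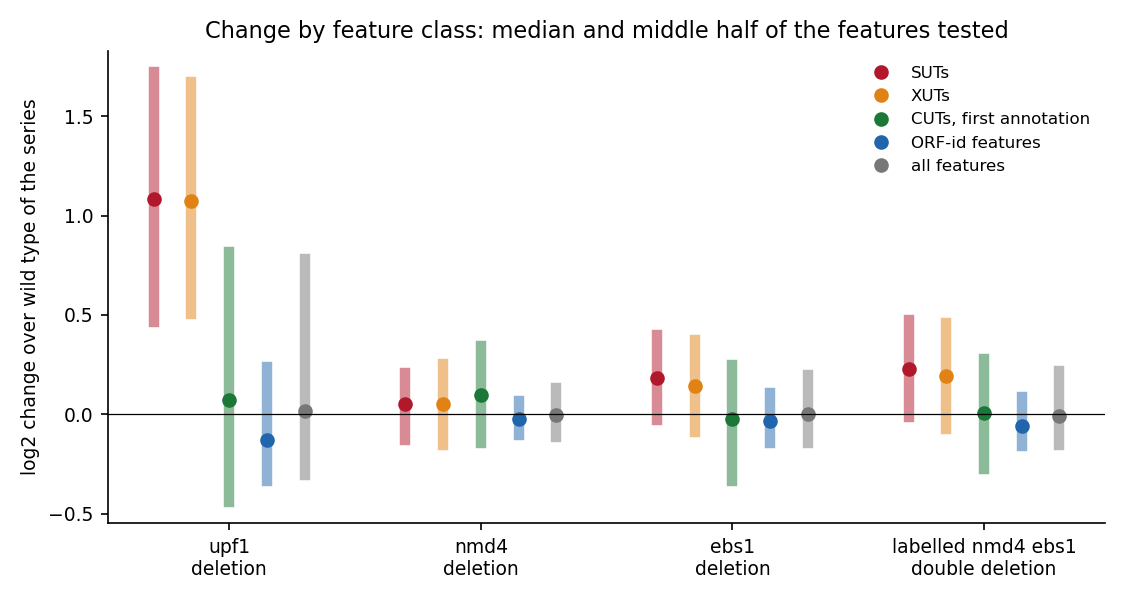
Median (point) and quartile range (bar) of the log2 change over the wild type of the same series (y axis) for 5 feature classes in 4 comparisons (x axis). SUTs and XUTs stand at medians of 1.08 and 1.07 in the upf1 deletion and within 0.23 of 0 in the other comparisons.

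The largest rises were named by a fixed rule: the 12 largest among SUTs with a mean of 5 CPM or more in the group that was higher, with no same-strand ORF-id overlap and no overlap between the groups' libraries. SUT840 (chromosome XVI, 797795 to 799043, minus strand) runs opposite MSS18, which acts in splicing of a mitochondrial intron, and starts divergently from CTF4, a replisome gene. It had 16.4, 16.0 and 17.6 CPM in the upf1 deletion, against 1.28, 1.56 and 1.09 CPM in wild type. The lowest upf1 library was far above the highest wild-type library, and the log2 change was 3.68 ± 0.14 (SE; adjusted p = 2.12e-09, edgeR). SUT840 counts equalled 88.5% of the MSS18 counts in the upf1 deletion, against 5.87% in wild type, while MSS18 itself did not pass (log2 -0.22, adjusted p = 0.0729, edgeR).

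SUT464 (chromosome IV, 433312 to 434072, minus strand), opposite the anaphase-promoting complex gene APC11, overlapped no other feature on its own strand. It had 22.5, 18.5 and 23.9 CPM in the upf1 deletion, against 2.56, 1.46 and 2.77 CPM in wild type (log2 3.23 ± 0.18, adjusted p = 4.78e-08, edgeR). SUT557 (chromosome VII, 713475 to 714971, minus strand) covers the cardiolipin deacylase gene CLD1 over 1317 bases. Its level was 50.8, 54.7 and 55.1 CPM in the upf1 deletion, against 6.28, 5.83 and 6.46 CPM in wild type (log2 3.11 ± 0.07, adjusted p = 2.14e-10, edgeR). In both SUTs the 2 groups did not overlap, as the naming rule required. CLD1 fell, with 3.29 ± 0.798 CPM in the upf1 deletion and 6.52 ± 0.660 CPM in wild type (SD, n = 3 each; log2 -0.99 ± 0.17, adjusted p = 0.000427, edgeR), so SUT557 outnumbered it there.

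SUT500 (chromosome V, 8413 to 9765, minus strand) touches no ORF-id feature and lies 8413 bases from the chromosome end. It had 54.9, 56.9 and 55.4 CPM in the upf1 deletion, against 7.35, 7.34 and 7.34 CPM in wild type (log2 2.92 ± 0.06, adjusted p = 1.32e-10, edgeR). The remaining 8 had log2 changes between 2.84 and 3.07, and none had overlapping groups, as the naming rule required. SUT712 (3.07) ends opposite the ribosomal protein gene RPL6B and starts divergently from the proline isomerase gene FPR4. SUT321 (3.07) covers the alcohol dehydrogenase gene ADH6, SUT406 (3.03) lies within the span of RLM1, a transcription factor gene of the cell wall pathway, and SUT626 (3.01) starts divergently from the histone chaperone gene ASF1. SUT059 (2.88) lies opposite MRX16, SUT246 (2.85) opposite YLR001C, SUT588 (2.84) opposite the chitin synthase export gene CHS7, and SUT614 (2.84) partly opposite the allantoin permease gene DAL4. In wild type SUT321 counts were 0.341% of ADH6 counts and SUT712 counts 0.162% of RPL6B counts. The ratios were not scaled to the overlap, which is only partial for SUT712, and these SUTs were picked for their large rises.

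**Figure D3:**
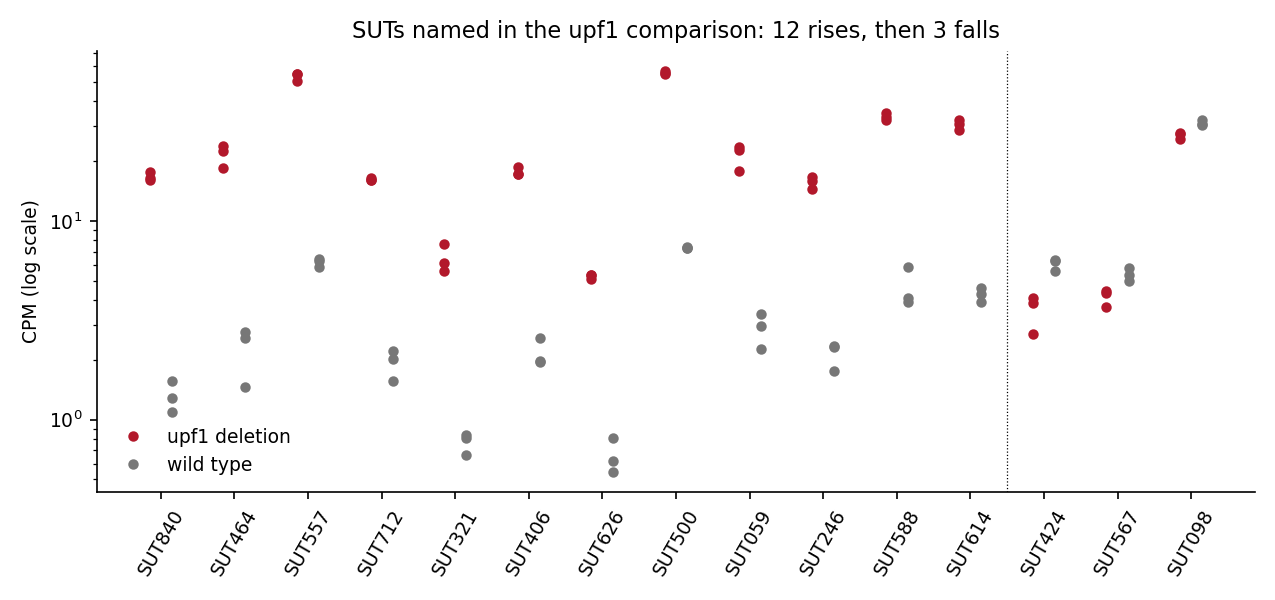
CPM on a log scale (y axis) of the SUTs named in the upf1 comparison (x axis): the 12 largest rises, then 3 falls to the right of the dotted line. Each point is 1 library of 3 per group; the groups do not overlap, as the naming rule required, and SUT557 and SUT500 reach above 50 CPM in the upf1 deletion.

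Falls were few, small and mostly in short SUTs of low level. The 28 SUTs called lower had a median log2 change of -0.64, a median length of 389 bases and a median of 1.18 CPM in the upf1 deletion, against 1.89 CPM in wild type. Their number depended on the scaling: 14 were called with scaling on ORF-id features alone and 6 with library totals alone. Without single libraries or replicate numbers it lay between 12 and 27, with 12 when replicate 1 of both groups was left out, 15 without replicate 2 of the upf1 deletion and 17 without replicate 1 of the wild type.

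The naming rule found 3 falls. SUT424 (chromosome XVI, 813231 to 813727, plus strand) lies wholly opposite LOA1, a gene of phospholipid metabolism, and had 3.88, 2.70 and 4.09 CPM in the upf1 deletion, against 6.32, 5.58 and 6.25 CPM in wild type (log2 -0.78 ± 0.16, adjusted p = 0.00122, edgeR). Every upf1 library was below every wild-type library, as the naming rule required, and the call held under every alternative run. SUT567, at the start of the phosphatase gene YCH1, changed by -0.38 ± 0.13 (adjusted p = 0.0221, edgeR), a call lost with scaling on ORF-id features alone (adjusted p = 0.129, edgeR), without replicate 2 of the upf1 deletion (0.0745) and without replicate 1 of its wild type (0.0609). SUT098, divergent from the glutathione degradation gene GCG1, changed by -0.20 ± 0.06 (adjusted p = 0.0135, edgeR), which was -0.08 and not called with scaling on ORF-id features alone, turned to 0.07 with library totals alone, and was not called without replicate 3 of the upf1 deletion (adjusted p = 0.0531).

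The change in the upf1 deletion went with the length of the SUT. The tested SUTs were split at their length quartiles into 4 classes. In the shortest class (105 to 497 bases) 81 of 193 rose, with a median log2 change of 0.40, and 20 fell. In the next class (505 to 833 bases) 128 of 179 rose and 5 fell, with a median of 0.92. The third class (841 to 1369 bases) had 163 of 186 higher, 1 lower and a median of 1.32, and the longest class (1385 to 4913 bases) had 173 of 186 higher, 2 lower and a median of 1.51. The wild-type level per length was highest in the shortest class and differed less among the others, at medians of 3.72, 2.75, 2.90 and 2.87 CPM per kb. Counts rose with length, since longer SUTs collect more reads: the wild-type medians were 1.28, 1.88, 2.92 and 5.41 CPM. The part of read depth in the number of calls was not tested. Among the 518 SUTs of at least 2 CPM on average over both groups the medians were 0.68, 0.96, 1.45 and 1.60. That average includes the upf1 deletion, so a rise helped a SUT to enter, and 65 of the 193 shortest did. Among the 226 SUTs with no XUT on their strand they were 0.45, 0.63, 1.30 and 1.13. Among the 113 SUTs free of any same-strand overlap the longest class had 18 of 23 called higher and a median of 1.09, and the shortest 19 of 46 and a median of 0.47. These 3 subsets were chosen after seeing the data.

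Spearman's rank correlation between length and log2 change was 0.46 over 744 SUTs, and 0.46 for the length beyond the first stop over 740 SUTs. Both lengths are nearly one measure (rank correlation 0.99 between them), so they cannot be told apart. Other properties of the sequence went less with the change. The rank correlation was 0.34 for the codons of the longest open frame over 744 SUTs. Whether that value is separate from length was not tested. The correlation was -0.06 for the codons of the first frame, -0.07 for the position of the first ATG, and -0.003 for GC content. The GC relation was not a steady one. In classes split at the GC quartiles, from lowest to highest, 63.4%, 77.4%, 83.9% and 68.3% of tested SUTs were called higher. The median lengths of these classes were 585, 949, 1149 and 801 bases. The SUTs in such a list share libraries, and many share reads with overlapping features, so these values are descriptions.

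**Figure D4:**
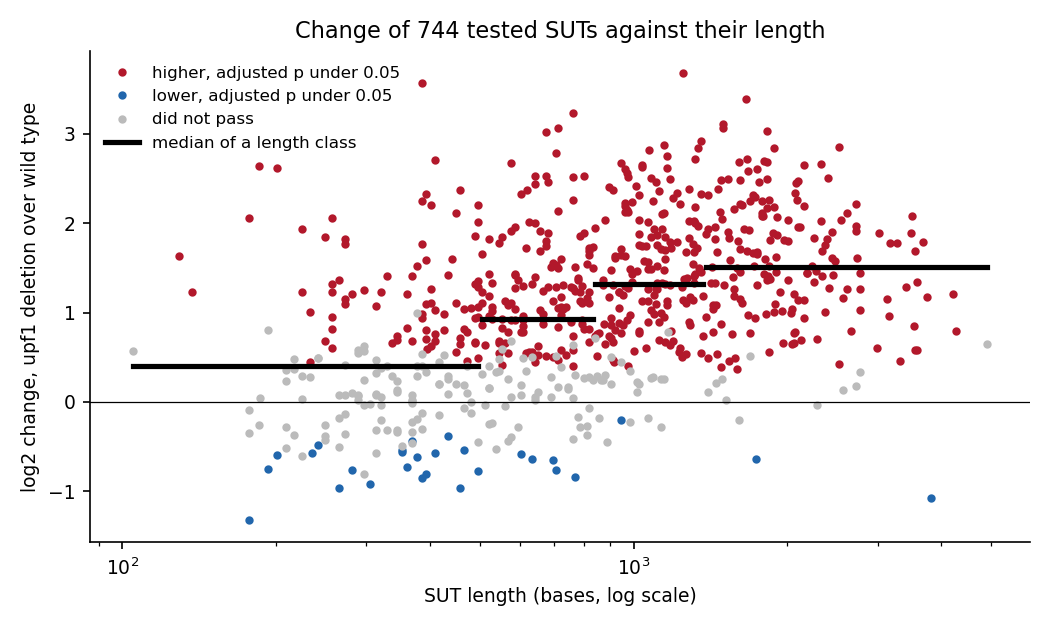
log2 change in the upf1 deletion over wild type (y axis) against SUT length in bases on a log scale (x axis), 1 point for each of 744 tested SUTs. Black lines are the medians of the 4 length classes, 0.40, 0.92, 1.32 and 1.51.

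Medians differed less between classes of position than between the length classes. SUTs with at least 50% of their length opposite an ORF-id feature had 322 of 401 called higher and a median log2 change of 1.21, against 223 of 343 and 0.86 for the others. The SUTs mostly opposite a gene were longer, with a median of 1097 bases, against 577 bases for the others. Among tested SUTs longer than the median 90.4% of those mostly opposite a gene and 90.1% of the others were called higher, and among the rest 61.4% and 53.0%. SUTs with a divergent start had 259 of 377 higher (median 0.99), against 286 of 367 (median 1.14) for those without. Within 20 kb of a chromosome end 43 of 49 SUTs rose and none fell (median 1.46), against 502 of 695 higher farther in (median 1.04). These end SUTs had a median length of 1017 bases, against 817 bases farther in. Among the end SUTs was SUT532 near the alcohol dehydrogenase gene ADH4, with 4.22, 3.78 and 4.48 CPM in the upf1 deletion, against 0.620, 0.854 and 1.22 CPM in wild type (log2 2.20 ± 0.21, adjusted p = 4.63e-06, edgeR).

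The genes opposite the SUTs moved in both directions. For 500 tested SUTs the ORF-id feature with the longest overlap was also tested, 488 features in all, of which 174 (35.7%) were called higher and 154 (31.6%) lower, with a median log2 change of 0.02. That is beside 26.1% and 44.1% over all ORF-id features. At that threshold 60 of the 488 were at least 2-fold higher and 2 at least 2-fold lower, where 490 and 28 of all 5891 ORF-id features were. With scaling on ORF-id features alone, 42.6% of the opposite features were called higher and 20.5% lower, beside 33.0% and 29.5% of all ORF-id features under that scaling. Opposite the SUTs that rose, 134 of 374 features were higher and 109 lower (median 0.03), and opposite those not called higher 40 of 119 were higher and 46 lower (median -0.06). Where a risen SUT covered the start of the gene, 67 of 189 genes were higher and 56 lower (median 0.07). Genes that start divergently from a tested SUT had 84 of 373 higher and 177 lower, with a median of -0.15.

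Single pairs went different ways. RLM1 fell by 0.53 on the log2 scale (adjusted p = 0.000162, edgeR), ADH6 by 0.49 (adjusted p = 1.38e-05) and CHS7 by 0.60 (adjusted p = 5.77e-05), each opposite a SUT of the 12 largest rises. MRX16, opposite SUT059, rose by 0.47 (adjusted p = 0.000692, edgeR). SUT063 (chromosome IV, 968033 to 969697, plus strand), which covers the catalase gene CTA1, had 98.1, 102 and 103 CPM in the upf1 deletion, against 16.4, 15.6 and 14.1 CPM in wild type (log2 2.71 ± 0.06, adjusted p = 2.06e-10, edgeR). CTA1 itself rose by 0.67 (adjusted p = 0.000742, edgeR), so both strands of that locus were higher, with no overlap between the groups for the SUT.

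**Figure D5:**
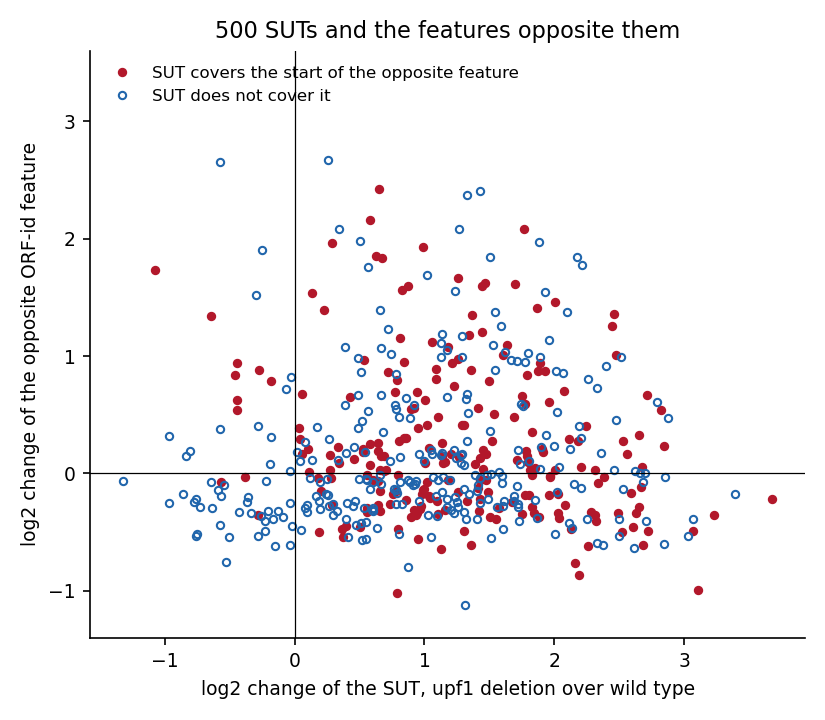
log2 change of the ORF-id feature opposite a SUT (y axis) against that of the SUT (x axis) in the upf1 deletion over wild type, for 500 SUTs. Filled points are SUTs that cover the start of the opposite feature and open points those that do not; the cloud lies to the right of 0 on the x axis and on both sides of 0 on the y axis.

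In the single deletions of the second series SUT levels moved far less. In the nmd4 deletion no SUT of 753 tested was called in either direction, by edgeR or by DESeq2, and 41 were higher and 11 lower at an unadjusted p under 0.05, where 306 and 210 of all 10148 features were. By adjusted p, 0.0394% of all features were called higher and 0.00985% lower there. The median over SUTs was 0.05 (quartiles -0.13 and 0.21).

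In the ebs1 deletion 4 SUTs rose and none fell, against 0.355% of all features higher and 0.00985% lower. DESeq2 called 30 higher, and with the replicate number as a block edgeR called 53, among them all 4 of the fit without it. At an unadjusted p under 0.05, 149 SUTs were higher and 9 lower, where 811 and 476 of all 10148 features were. The median over SUTs was 0.19 (quartiles -0.03 and 0.40), against 0.00 over all features. The 4 calls rested on the spread pooled over the second series. None was called when the labelled double deletion was left out of the fit, an alternative added after seeing the data, nor without any one of the 3 ebs1 deletion libraries. Between 1 and 5 were called without any one library of the other groups. These left-out fits did not use the block.

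The 4 SUTs were SUT509, SUT439, SUT593 and SUT457. SUT509 (chromosome V, 186934 to 188070, minus strand), divergent from the microtubule-binding protein gene BIM1, had 19.1, 19.1 and 20.3 CPM in the ebs1 deletion, against 12.3, 12.3 and 10.8 CPM in wild type (log2 0.72 ± 0.10, adjusted p = 0.0131, or 0.0045 with the block, edgeR). SUT439 lies within YBL029W on the other strand and had 10.4, 8.97 and 8.60 CPM in the ebs1 deletion, against 5.16, 4.35 and 5.08 CPM in wild type (log2 0.93 ± 0.14, adjusted p = 0.024, edgeR). SUT593, at the start of YHR180W, changed by 1.01 ± 0.15 (adjusted p = 0.024, edgeR), and SUT457 by 0.72 ± 0.12 (adjusted p = 0.0347, edgeR). In all 4 the ebs1 libraries lay above the wild-type libraries, but picking SUTs by a small p favours such separation. All 4 had also risen in the upf1 deletion, by 2.10, 1.23, 1.09 and 0.69 on the log2 scale, as had 541 of the 733 SUTs tested in both series.

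In the labelled double deletion 41 SUTs of 753 rose and 1 fell, against 2.01% of all features higher and 0.384% lower. The median over SUTs was 0.23, against -0.01 over all features. With the replicate block 91 rose and 4 fell. Leaving out replicate 1, 2 or 3 of this group gave 17, 20 and 22 rises, and leaving out replicate 2 or 3 of the wild type 21 and 24. Without a replicate number of every group, 2 to 4 were called. Of the 41, 38 had also risen in the upf1 deletion, which has its own wild type, and 1 other, SUT226, had fallen there. Of all 733 SUTs tested in both series 541 had risen in the upf1 deletion.

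The largest changes there were at loci that differ between mating types. SUT226 (chromosome XI, 115095 to 115551, plus strand) starts 212 bases from the divergent gene STE3, the a-factor receptor gene expressed in mat alpha cells. It had 9.77, 9.08 and 9.26 CPM in the labelled double deletion, against 1.35, 1.31 and 2.29 CPM in wild type (log2 2.47 ± 0.24, adjusted p = 9.38e-05, edgeR), and STE3 had 415 CPM, against 2.98 CPM. SUT612 runs over the start of the counted feature of BAR1 (chromosome IX, 323323 to 324211, plus strand), the pheromone protease gene of mat a cells. It had 5.07, 4.19 and 4.89 CPM in the labelled double deletion, against 0.112, 0.870 and 0.382 CPM in wild type (log2 3.46 ± 0.46, adjusted p = 0.00181, edgeR). BAR1 had 2.38 CPM there, against 127 CPM in wild type. Neither SUT226 nor SUT612 had groups that overlapped, though both were picked by smallest p. Strain background and genotype cannot be told apart at these loci.

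The other SUTs named there were SUT509 (log2 0.91), SUT439 (1.16), SUT457 (0.87), SUT593 (0.98), SUT449 opposite the meiotic checkpoint gene PCH2 (0.98) and SUT398 divergent from the kinase gene FRK1 (1.5). The adjusted p-values of these 6 ran between 0.000332 and 0.00552 (edgeR). In each the 3 libraries lay above the 3 wild-type libraries, which picking by smallest p favours. The 1 SUT called lower was SUT018, divergent from LYS2, a gene deleted in BY4742. It had 8.41, 7.74 and 7.75 CPM in the labelled double deletion, against 15.7, 11.5 and 10.8 CPM in wild type (log2 -0.67 ± 0.15, adjusted p = 0.0473, edgeR), and LYS2 had 0.0720 CPM, against 343 CPM. SUT018 was named after its values were seen, and it was not called in most fits that left out a library.

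SUTs with a strong change in the upf1 deletion stood somewhat higher in the ebs1 deletion. Among the 541 SUTs called higher in the upf1 deletion and tested in both series the median log2 change was 0.07 without NMD4, 0.26 without EBS1 and 0.30 for the labelled double deletion. Positive values were found for 334, 437 and 445 of the 541. For the 122 SUTs at least 4-fold higher the medians were 0.09, 0.37 and 0.46. For the 165 SUTs not called in the upf1 deletion they were -0.01, 0.03 and 0.07. The upf1 series has its own wild type, whereas the other 3 comparisons share theirs, so the values of these 3 are not independent of each other.

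The size of the upf1 effect was set against the others in a fit of all 18 libraries, each effect taken within its own series. Of 770 SUTs tested, 400 had a larger upf1 than nmd4 effect and 3 a smaller one, where 20.8% and 5.42% of all 10381 features had. Against the ebs1 effect 346 were larger and 1 smaller (16.9% and 2.97% of all features), and against that of the labelled double deletion 333 were larger and 5 smaller (16.3% and 2.54%). The 3 differences share the upf1 series and the wild type of the second series. The median differences over SUTs were 1.00, 0.88 and 0.79 on the log2 scale.

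SUT500 and SUT063 had the smallest p-values in all 3 comparisons. Without NMD4, SUT500 had 6.80, 7.24 and 8.01 CPM. It had 9.40, 9.57 and 9.89 CPM without EBS1 and 10.7, 11.0 and 10.4 CPM in the labelled double deletion, against 7.58, 6.45 and 6.45 CPM in their wild type. The nmd4 libraries overlapped the wild type and the other 2 groups did not, yet none came near the 54.9 CPM of the lowest upf1 library, in a series scaled separately. The upf1 effect exceeded the others by 2.82 ± 0.13, 2.41 ± 0.13 and 2.25 ± 0.13 (adjusted p = 2.95e-10, 2.07e-09 and 2.68e-09, edgeR). For SUT063 the differences were 2.74, 2.45 and 2.43. The other SUTs named by this rule were SUT665 opposite MBR1, SUT452 opposite the sulfate permease gene SUL1, SUT745 opposite YTP1, SUT614, SUT438 opposite MOH1, SUT394 within the span of the galactose regulator gene GAL4, and SUT581 divergent from the phosphatase gene PTC7. Their differences lay between 1.89 and 2.91. SUT452 was the SUT with the most counts in the upf1 deletion, at 111, 115 and 109 CPM, against 26.9, 26.7 and 25.6 CPM in wild type.

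The most abundant SUTs in wild type differed in what they did in the upf1 deletion. Per length, the highest in wild type were SUT388, SUT350, SUT098, SUT457, SUT721, SUT440, SUT305 and SUT141, counting SUTs with no same-strand ORF-id overlap. SUT388 (chromosome XV, 1003958 to 1004470, plus strand) stood at 28.0 CPM per kb in the upf1 deletion and 28.7 CPM per kb in its wild type. Its 3 libraries had 14.8, 13.4 and 14.9 CPM in the upf1 deletion, against 14.1, 14.2 and 15.9 CPM in wild type, which overlap (log2 -0.04 ± 0.09, adjusted p = 0.727, edgeR). With library totals alone, however, the change was 0.24 and SUT388 was called higher (adjusted p = 0.0406, edgeR). SUT350, which meets the end of HPF1 by 21 bases, stood at 44.8 CPM per kb in the upf1 deletion and 34.8 CPM per kb in wild type and rose by 0.37 ± 0.05 (adjusted p = 0.000109, edgeR). SUT141, divergent from the phosphofructokinase gene PFK1, rose by 1.43 ± 0.09. Spearman's rank correlation between wild-type level per kb and the upf1 log2 change was -0.17 over 744 SUTs, and the wild-type level enters both measures.

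A few SUTs have been singled out in functional studies of yeast non-coding RNAs. SUT719, which runs opposite SUR7, a plasma membrane protein gene, had 2.11, 1.72 and 2.10 CPM in the upf1 deletion, against 0.785, 0.653 and 0.630 CPM in wild type (log2 1.5 ± 0.21, adjusted p = 8.78e-05, edgeR). SUT457, described in connection with telomere maintenance, had 13.0, 12.6 and 12.6 CPM, against 7.48, 7.09 and 9.11 CPM (log2 0.69 ± 0.11, adjusted p = 0.000209, edgeR). Both had every upf1 library above every wild-type library. SUT126 rose by 1.68 ± 0.11 (adjusted p = 1.25e-07, edgeR). SUT125, divergent from the eisosome gene PIL1, was at 0.506, 0.491 and 0.635 CPM in the upf1 deletion, against 1.36, 1.11 and 0.630 CPM in wild type. Its groups overlapped, and the call (log2 -0.92 ± 0.32, adjusted p = 0.0234, edgeR) was lost without replicate 1 of the wild type (adjusted p = 0.11) and in 8 other alternatives. SUT035 had no count in any of the 6 libraries of the upf1 series, where 3 counts would be 0.105 to 0.151 CPM, a limit for counting error only.

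The genes of the decay machinery give the setting for these changes. Of 21 listed genes for NMD, decapping, Xrn1, the nuclear exosome with Nrd1, Nab3 and Sen1, and the Ski complex, 3 were called higher and 15 lower in the upf1 deletion, with a median log2 change of -0.24. The 15 include NAM7, the deleted gene, and over all ORF-id features 26.1% were called higher and 44.1% lower. With scaling on ORF-id features alone 4 were higher and 9 lower, with a median of -0.11. NMD4 rose by 2.08 ± 0.06 and EBS1 by 1.00 ± 0.06, while XRN1 changed by -0.44 ± 0.06 and the decapping gene DCP1 by -0.73 ± 0.07 (adjusted p = 6.52e-10, 1.38e-07, 0.000107 and 2.40e-06, edgeR). In the other comparisons the deleted genes and NMD4 were the only called members. The part of the lower XRN1 counts in the SUT changes was not tested.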

How the data were processed

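Total RNA depleted of ribosomal RNA was sequenced with a stranded kit, per the labels' protocols. The deposited values are raw counts of reads per feature, 1 table per series. Per the file headers the authors counted with featureCounts (Subread 1.5.0-p3), on the sense strand, assigning a read to every feature it overlapped. STAR 2.4.2a and the R64 build are named in the submitters' processing notes. CPM, features per class and overlaps (at least 1 base) were computed here. Overlaps and starts were taken from the counted features. Of the 6006 ORF-id features matched to RefSeq R64, 93.5% contained the RefSeq span, so an end of a feature can lie within its gene.

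Each series was fitted whole with edgeR 4.0.16 in R 4.3.3 (quasi-likelihood test, TMM scaling, filterByExpr with a count minimum of 10, Benjamini-Hochberg adjustment, threshold 0.05, 2-sided), and differences between effects in 1 fit of all 18 libraries. The fits were also run on simulated counts drawn independently for each feature and library. Those counts lacked the pairing and the shared reads of the real data, so these traits were not tested. Alternatives were DESeq2 1.42.0, library totals, scaling on ORF-id features, no filter, a replicate block, stricter overlaps and left-out libraries.

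Same-numbered libraries were handled in parallel per the labels, which pairs them. Correlations of their deviations from group means were 0.0439 to 0.226 over 3 pairs in the upf1 series (-0.188 to 0.0684 for different numbers) and -0.0106 to 0.645 over 18 pairs in the second (-0.471 to 0.213). The main fits and those with left-out libraries did not use this pairing, and the replicate block did.

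Named SUTs were the 12 largest rises and up to 8 largest falls in the upf1 deletion among called SUTs with a mean of 5 CPM or more in the group that was higher, with groups that did not overlap and no same-strand ORF-id overlap; up to 8 called SUTs by smallest p in each other comparison; the 8 highest per kb in wild types; and 6 SUTs from the literature. Members, lists and rules were chosen with earlier results of these data known.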

Additional observations from a re-analysis of the deposited data

How the results depend on the processing

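The number of SUTs called higher in the upf1 deletion, 545, lay between 500 and 543 with a library or replicate number left out, and the other settings kept it within 1.5 times. The 28 called lower became 15 with DESeq2, 6 with library totals and 14 with ORF-id scaling, and 12 to 27 with libraries left out (12 to 16 without a replicate number of both groups). The 4 ebs1 rises became 30 with DESeq2, 39 with library totals, 9 with ORF-id scaling, 53 with the replicate block, 0 with the labelled double deletion left out (added after seeing the data), and 0 to 5 with libraries left out; among SUTs free of same-strand overlap 0.877% were called. The 41 rises in the labelled double deletion became 98 with library totals, 91 with the block, and 2 to 38 with libraries left out (17 without its replicate 1). The 1 fall there became 2 with DESeq2, 0 with library totals, 0 with no filter, 4 with the block, and 0 to 2 with libraries left out. SUTs with a smaller upf1 effect than the nmd4 effect (3) became 5 with no filter, 8 with the block, 1 with ORF-id scaling and 1 to 8 with libraries left out. Against the ebs1 effect (1) they became 3 with the block, 0 with ORF-id scaling and 0 to 3 with libraries left out. Against the labelled double deletion (5) they became 9 with no filter, 11 with the block, 3 with ORF-id scaling and 2 to 9 with libraries left out. SUTs with a larger upf1 effect ranged between 353 and 403, 300 and 364, and 290 and 343 with libraries left out.

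The ratio of shares, 3.31, was 2.70 in SUTs free of same-strand overlap. With an overlap of at least 50% of the SUT, or of at least 100 bases, the class opposite and on the strand of a gene held 1 and 1 SUTs in place of 54, the class on the strand of a gene 0 and 1 in place of 54, and the class with neither 386 and 320 in place of 199. Opposite ORF-id features called lower were 20.5% with ORF-id scaling. With library totals SUT098 turned to 0.071, and SUT388 turned to 0.24 and was called higher (adjusted p = 0.0406, edgeR). Over 64 results for single named SUTs, 1027 of 1146 alternatives kept direction and side of the threshold and 113 lost the call. Apart from the counts above, the block changed 1 named call, that of SUT305 in the upf1 deletion (adjusted p = 0.0298, edgeR). The causes were not tested. At the depth of the second series 3 counts stood for 0.0923 to 0.218 CPM.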

Other observations

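Only SUT706 and SUT194 were at least 2-fold lower in the upf1 deletion among the SUTs called there, and both were picked out after their values were seen. SUT706 (chromosome XII, 789699 to 789875, minus strand), 177 bases opposite CHS5, a gene of chitin synthase transport, had 0.464, 0.420 and 0.714 CPM in the upf1 deletion, against 1.86, 1.00 and 1.09 CPM in wild type (log2 -1.32 ± 0.32, adjusted p = 0.00356, edgeR). Whether this call held under the alternatives is not reported here. SUT194 (chromosome IX, 389244 to 393068, plus strand) covers the counted feature of the flocculin gene FLO11 (389352 to 392928). SUT194 carries an open frame of 585 codons. It had 0.422, 0.210 and 0.238 CPM in the upf1 deletion, against 0.620, 0.653 and 0.546 CPM in wild type (log2 -1.07 ± 0.34, adjusted p = 0.016, edgeR). That call was lost with DESeq2 (adjusted p = 0.0816). With edgeR it was lost with library totals alone (adjusted p = 0.0643), without replicate 2 or 3 of the upf1 deletion (0.0685 and 0.0584), and also without replicate 2 of both groups or replicate 3 of both groups (0.0696 for replicate 3). FLO11 was at 5.36 ± 0.196 CPM in the upf1 deletion and 1.63 ± 0.458 CPM in wild type (SD, n = 3 each; log2 1.73 ± 0.18, adjusted p = 8.03e-06, edgeR). The groups of both SUTs did not overlap, and all their levels were under 2 CPM.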
